A study of Mus musculus with 10 samples.

Results

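The loci described here are those of 9 genes of the NF-kB pathway in thymic invariant natural killer T (iNKT) cells. They are the 5 genes of the NF-kB subunits (Nfkb1, Nfkb2, Rel, Rela and Relb) and 4 genes of inhibitors and regulators that NF-kB itself induces (Nfkbia, Nfkbiz, Tnfaip3 and Bcl3). A region of accessible chromatin was assigned to a gene when it overlapped the gene body or lay within 50 kb of the annotated transcription start. This took 164 of the 94823 regions: 37 at Nfkb1, 13 at Nfkb2, 7 at Rel, 9 at Rela, 10 at Relb, 18 at Nfkbia, 19 at Nfkbiz, 28 at Tnfaip3 and 23 at Bcl3. No region belonged to more than 1 of these genes. In gene-dense surroundings many regions lay nearer to the start of another gene, and the nearest start was that of the named gene for 125 of the 164 (5 of 13 at Nfkb2, 3 of 9 at Rela, 3 of 10 at Relb and 7 of 23 at Bcl3). At the edge of the window, the last region inside was 49882 bp from the Nfkbiz start (log2 change of -0.72 between genotypes in iNKT2 cells) and the first region outside was 50472 bp from the Tnfaip3 start (0.26). Larger changes lay beyond the window and are not counted here. The first region outside changed by 1.77 at Nfkbia (53456 bp), -1.11 at Bcl3 (52090 bp) and -1.58 at Nfkb1 (108604 bp). At the other genes it changed by -0.36 to 0.44. Regions are named here by gene and by their order along the chromosome within the locus, so that Tnfaip3_17 is region 17 of the 28 at Tnfaip3.

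Accessibility was measured by ATAC-seq, an assay that counts where a transposase places adapters in open DNA. The cells were sorted from thymus as CD1d tetramer-positive iNKT cells of the iNKT1 subset (CD27+ CD122+) or the iNKT2 subset (CD27+ CD122-). BALB/c mice were the wild-type controls, and SKG mice carry on the BALB/c background a germline hypomorphic mutation of Zap70, the kinase that relays the T cell receptor signal, so that every T lineage cell of the animal is affected and not iNKT cells alone. There were 2 libraries of BALB/c iNKT1 cells, 2 of SKG iNKT1, 3 of BALB/c iNKT2 and 3 of SKG iNKT2, with no treatment in any group. Nothing in the labels says that the libraries of a group came from separate mice or pools, so p-values measure the spread between these libraries, which may be technical.

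NF-kB is a family of dimeric transcription factors held in the cytoplasm by inhibitor of kappa B proteins. Antigen receptor signals act through an adaptor complex and the IKK kinase to destroy the inhibitor and release Rela and Rel dimers, while tumour necrosis factor family receptors act through NIK on the slower arm of Nfkb2 and Relb. The released dimers induce their own inhibitors, which end the response, and NF-kB activity is needed in thymic iNKT cells for their survival and maturation.

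The DNA of some of the named regions is shown first, from GRCm38 (mm10) and on the strand of the gene. Those shown do not stand for all. Of the 22 regions higher in SKG iNKT2 cells, 7 held the 10-base kappa B consensus described next. Capitals mark matches, on either strand, to the 10-base kappa B consensus or to the 9-letter string GGANNTTCC, merged where they overlap, and TTCC is also the core of ETS sites and part of NFAT sites. Tnfaip3_17, an intronic region, held the smallest adjusted p of its locus between genotypes in iNKT2 cells, and its central 300 bases (chr10:19009274-19009573, minus strand) hold 2 stretches of matches.
Tnfaip3_17: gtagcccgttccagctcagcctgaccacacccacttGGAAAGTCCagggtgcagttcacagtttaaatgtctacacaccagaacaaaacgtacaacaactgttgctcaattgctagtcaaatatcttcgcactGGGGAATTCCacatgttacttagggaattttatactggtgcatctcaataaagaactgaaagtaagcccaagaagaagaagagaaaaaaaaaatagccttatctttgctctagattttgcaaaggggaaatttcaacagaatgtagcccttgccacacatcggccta
Nfkbia_2 (chr12:55446849-55447148, minus strand) and Bcl3_10 (chr7:19824236-19824535, minus strand) lie outside the gene bodies, were also higher in SKG iNKT2 cells, and hold 1 stretch each.
Nfkbia_2: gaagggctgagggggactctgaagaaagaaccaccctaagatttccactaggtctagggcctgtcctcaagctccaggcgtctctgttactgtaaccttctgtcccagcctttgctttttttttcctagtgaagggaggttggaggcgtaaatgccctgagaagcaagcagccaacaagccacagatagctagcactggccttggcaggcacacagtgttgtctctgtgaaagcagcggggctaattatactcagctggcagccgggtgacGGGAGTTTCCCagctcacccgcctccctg
Bcl3_10: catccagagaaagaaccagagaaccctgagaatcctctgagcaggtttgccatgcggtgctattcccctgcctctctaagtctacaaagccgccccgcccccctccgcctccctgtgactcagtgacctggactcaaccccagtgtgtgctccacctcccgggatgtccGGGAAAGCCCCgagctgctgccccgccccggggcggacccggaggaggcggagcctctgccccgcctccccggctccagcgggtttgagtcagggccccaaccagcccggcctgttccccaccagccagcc
Nfkbiz_6 (chr16:55809468-55809767, minus strand) was higher, and Nfkb1_37 (chr3:135733124-135733423, minus strand) lower, in SKG iNKT2 cells, and neither central window holds a match.
Nfkbiz_6: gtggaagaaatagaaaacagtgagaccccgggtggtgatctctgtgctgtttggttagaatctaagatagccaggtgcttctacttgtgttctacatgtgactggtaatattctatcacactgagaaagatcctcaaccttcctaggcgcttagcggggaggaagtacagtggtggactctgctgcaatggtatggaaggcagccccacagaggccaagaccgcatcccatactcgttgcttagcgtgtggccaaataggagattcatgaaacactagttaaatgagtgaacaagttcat
Nfkb1_37: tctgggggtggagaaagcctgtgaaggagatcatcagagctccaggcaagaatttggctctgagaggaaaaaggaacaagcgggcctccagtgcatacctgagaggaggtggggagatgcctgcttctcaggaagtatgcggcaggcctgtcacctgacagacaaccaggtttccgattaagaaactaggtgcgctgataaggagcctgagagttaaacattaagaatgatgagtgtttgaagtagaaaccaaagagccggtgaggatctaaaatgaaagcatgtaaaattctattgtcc
The 250 bases before the RefSeq start are shown for 2 of the promoters that were higher in SKG iNKT2 cells, Nfkbia (chr12:55492648-55492897, minus strand) and Nfkb2 (chr19:46304487-46304736, plus strand, the one of its 3 listed starts with the most matches, which lies just inside the gene as GENCODE annotates it). Each holds 2 stretches of matches.
Nfkbia promoter: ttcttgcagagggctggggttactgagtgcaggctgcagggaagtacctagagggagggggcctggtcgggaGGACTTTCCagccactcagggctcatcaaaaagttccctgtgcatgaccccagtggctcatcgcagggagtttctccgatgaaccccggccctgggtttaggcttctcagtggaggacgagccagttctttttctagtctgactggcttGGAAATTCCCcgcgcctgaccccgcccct
Nfkb2 promoter: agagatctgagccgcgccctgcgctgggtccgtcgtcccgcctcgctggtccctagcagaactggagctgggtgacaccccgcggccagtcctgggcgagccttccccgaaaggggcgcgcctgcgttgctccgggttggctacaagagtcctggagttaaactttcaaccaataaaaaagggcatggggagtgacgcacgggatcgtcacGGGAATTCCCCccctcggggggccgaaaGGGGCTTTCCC

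The libraries held 14988590 to 36342635 insertions inside the regions, and libraries within a group correlated in log2 level across regions with Pearson's r of 0.952 to 0.977. The floor of each library was taken as the level at percentile 5 of all regions, scaled to library totals without TMM. It was 0.194 to 0.336 CPM per kb in the 4 iNKT1 libraries, 1.49 to 2.28 in BALB/c iNKT2 and 0.603 to 1.09 in SKG iNKT2. Elsewhere CPM is counts per 1000000 insertions of TMM-scaled depth. The TMM factors were 0.893 to 0.921 in iNKT1, 1.061 to 1.189 in BALB/c iNKT2 and 0.984 to 1.082 in SKG iNKT2 libraries. Of the cell type markers, the summed promoter level of the 4 iNKT1 genes (Tbx21, Ifng, Il2rb and Cxcr3) was 251 to 282 CPM per kb in iNKT1 libraries and 57.6 to 89.9 in iNKT2 libraries. The summed promoter level of the 4 iNKT2 genes (Zbtb16, Gata3, Il4 and Il17rb) did not part the subsets, with 81.4 to 95.9 in iNKT1 and 68.8 to 99.7 in iNKT2 libraries. Singly, Il17rb was higher in iNKT2 libraries (15.1 to 19.0, against 6.75 to 9.28 in iNKT1). Il4 was lower there (5.35 to 24.4, against 24.7 to 45.6), and Zbtb16 and Gata3 overlapped. The promoters of 3 markers of iNKT17 cells (Il23r, Il17a and Ccr6) summed to 0.339 to 1.65 CPM per kb in iNKT1, 22.0 to 32.9 in BALB/c iNKT2 and 17.8 to 23.6 in SKG iNKT2 libraries. Between the genotypes of iNKT2 these markers moved apart, Il17a from 11.2 to 15.4 in BALB/c down to 1.56 to 4.37 in SKG, and Ccr6 from 1.93 to 3.17 up to 6.95 to 8.86, and their part in the genotype results was not tested. None of the 4 B cell or 4 myeloid markers had a promoter region, Cd8a was the only one of 4 cortical thymocyte markers with one (1.29 to 1.91 CPM per kb in BALB/c iNKT1, 4.06 to 6.42 in SKG iNKT1 and 0.137 to 2.82 in iNKT2 libraries), and the 4 T cell markers summed to 159 to 274.

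The first question was whether these loci gain accessibility in SKG iNKT2 cells. In the fit of all 10 libraries, most of the changes that passed the test in those cells were gains of less than 4-fold. These gains fell mainly on Tnfaip3, which encodes a ubiquitin-editing enzyme that shuts down NF-kB signalling, and on the promoters of the genes. The few called changes of 4-fold or more were losses, a balance that depended on the scaling, the tool and single libraries. The test was edgeR's quasi-likelihood F test over all regions, with p-values adjusted over the table by Benjamini-Hochberg, and calls needed both an adjusted p under 0.01 and a change of at least 4-fold. By that rule 0 of the 164 regions were called higher in SKG than in BALB/c iNKT2 cells (0.252% of all regions were) and 3 were called lower (4.73% of all regions). These counts became 1 higher and 2 lower with voom and limma, the authors' test. They were 10 and 2 under quantile normalization, 5 and 1 with the GC trend removed, and 4 and 4 with each library's floor subtracted. They were 2 and 3 when BALB/c iNKT2 replicate 2 was left out. With SKG iNKT2 replicate 1, 2 or 3 left out they were 0 and 6, 3 and 2, and 1 and 2. By the adjusted p alone, with no limit on the fold, 22 of the 164 regions (13.4%) were higher, against 4.02% of all regions, and 12 (7.32%) were lower, against 10.1% of all regions. The excess of gains depended on single libraries and on the scaling. The counts became 10 and 10 without BALB/c iNKT2 replicate 2 or replicate 3, and 14 and 11 with library totals without TMM. They were 18 and 16 without SKG iNKT2 replicate 1, 28 and 10 with voom and limma, and 43 and 8 with the GC trend removed. The median log2 change of the 164 regions was 0.24 and that of all regions 0.01, and 106 of the 164 lay above 0 (64.6%, against 50.9% of all regions). In a bulk library, fewer cells with an open region and less opening per cell cannot be told apart.

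The 22 gains were spread unevenly. Tnfaip3 held 12 of them (17 of the 18111 genes held at least 12) and Bcl3 3, Nfkbia held 2, and Nfkb1, Nfkb2, Rela, Relb and Nfkbiz held 1 each, so that Rel alone had none. Of the 12 losses, Nfkb1 held 8, Bcl3 2, and Relb and Nfkbiz 1 each. All 22 gains kept their direction in the 19 refits across regions (with other scalings or tools, a block on replicate number, or 1 library left out), and 10 to 22 of them still passed the test. The fewest, 10, remained when either BALB/c iNKT2 replicate 2 or replicate 3 was left out. The replicate number was also fitted as a block, although only the iNKT2 libraries numbered 1 deviated most closely with each other across genotypes. In that fit 49 of the 164 regions were higher (10.7% of all regions were) and 17 were lower (14.5% of all regions).

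**Figure D1:**
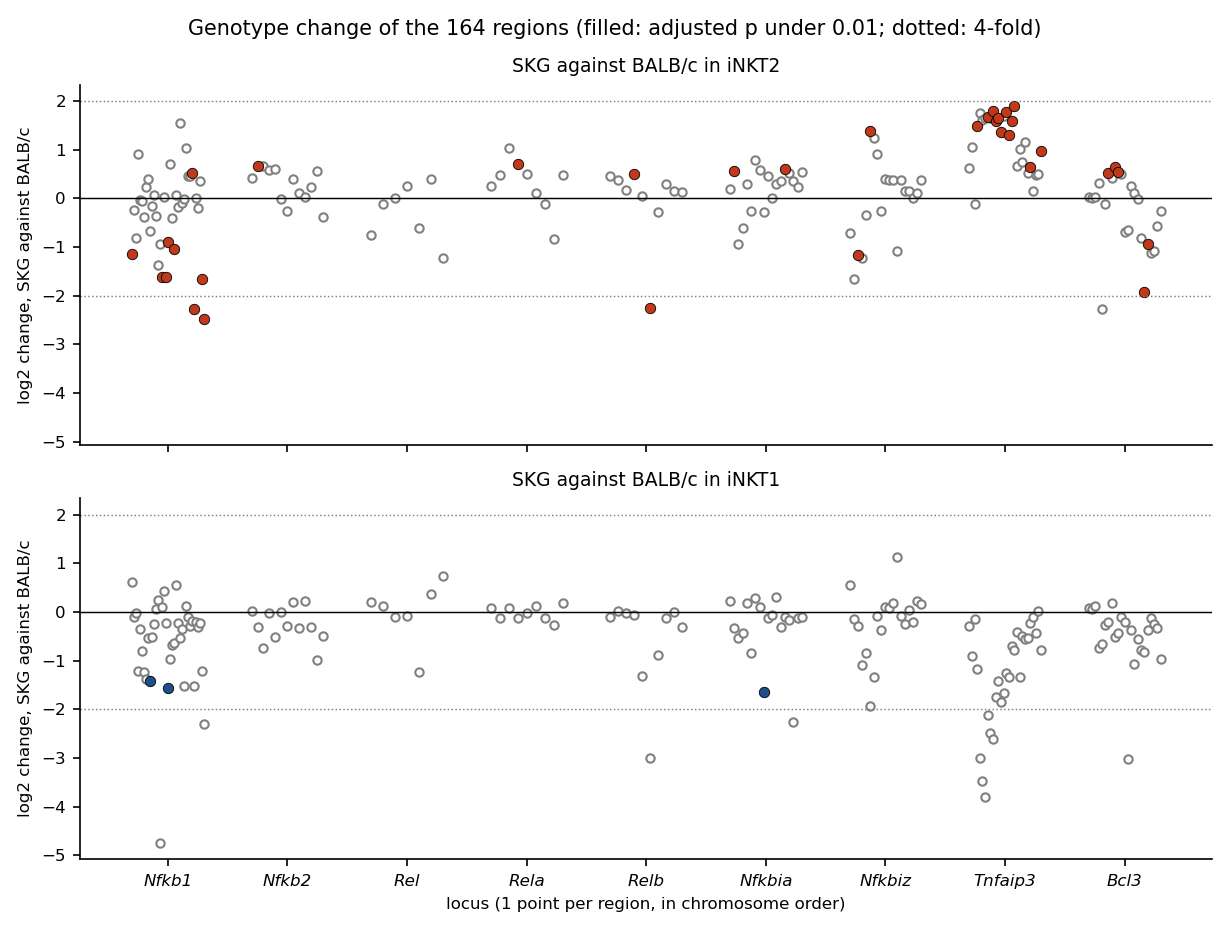
Log2 change between SKG and BALB/c for each of the 164 regions, 1 point per region, placed by locus along the horizontal axis, in iNKT2 cells (top) and iNKT1 cells (bottom). Filled points passed an adjusted p of 0.01 and dotted lines mark a 4-fold change, and the points of Tnfaip3 lie mostly above 0 in iNKT2 and below 0 in iNKT1 cells.

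Summed over all regions of a locus, insertions gave 1 value per gene and library, on a CPM scale of its own (scaled to the total of the sums over 18111 protein-coding genes, with no correction for length). Tnfaip3 stood at 179, 193 and 182 CPM in the 3 BALB/c iNKT2 libraries and at 284, 247 and 276 in the 3 SKG iNKT2 libraries. The groups did not overlap, and the SKG level was 1.45-fold higher (log2 change 0.54 ± 0.103 SE, adjusted p = 5.7e-03). Tnfaip3 was the only 1 of the 9 loci past the test, against 0.618% of all genes with a higher sum and 7.75% with a lower sum. That call was lost (adjusted p of 1.1e-02 to 2.5e-02) when SKG iNKT1 replicate 1 or 2, BALB/c iNKT2 replicate 1, 2 or 3, or SKG iNKT2 replicate 3 was left out, while the change stayed between 0.52 and 0.57, and it was lost under quantile normalization (0.47, adjusted p = 1.5e-02).

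The sums of the other inhibitors moved less. Nfkbia, which encodes the inhibitor of kappa B alpha, had 165, 169 and 148 CPM in BALB/c and 183, 177 and 202 in SKG iNKT2 libraries, with every SKG library above every BALB/c library (0.23 ± 0.0803 SE, adjusted p = 9.0e-02). Nfkbiz, which encodes a nuclear member of the inhibitor family that adjusts NF-kB target choice, had 124, 124 and 120 against 127, 133 and 134 CPM (0.10 ± 0.0546 SE, adjusted p = 2.6e-01). Bcl3, which encodes a nuclear partner of the p50 and p52 subunits, had 82.1, 67.2 and 66.7 against 78.4, 60.2 and 64.2 CPM, and its groups overlapped. Neither the gap at Nfkbia nor that at Nfkbiz passed the test. Neither pair of groups overlapped, but this was not set beside all genes and adds no support.

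Among the subunits, the sums gave no call between genotypes in iNKT2 cells. Relb, the partner of p52 in the slower arm, had 99.6, 90.1 and 87.8 CPM in BALB/c and 113, 102 and 110 in SKG iNKT2 libraries (0.23 ± 0.0713 SE, adjusted p = 5.8e-02). Nfkb2, which encodes the p100 precursor of p52, had 76.5, 66.1 and 61.2 against 98.4, 74.4 and 79.3 CPM, and Rela, which encodes p65, had 62.7, 48.3 and 42.2 against 73.2, 54.2 and 55.9. In both of these genes replicate 1 was the highest library of its group and the groups overlapped. Nfkb1, which encodes the p105 precursor of p50, had 172, 163 and 159 against 149, 154 and 152 CPM, the only subunit lower in every SKG library (-0.12 ± 0.0562 SE, adjusted p = 1.9e-01), and Rel, which encodes c-Rel, had 60.6, 54.2 and 55.9 against 57.7, 55.3 and 53.0. With the replicate block, 5 of the 9 sums passed the test, all higher in SKG, where 11.9% of all genes were higher and 17.1% lower. These were Tnfaip3, Nfkb2 (0.30, adjusted p = 3.1e-04), Rela (0.26, 1.9e-03), Relb (0.23, 2.1e-03) and Nfkbia (0.22, 8.7e-03).

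**Figure D2:**
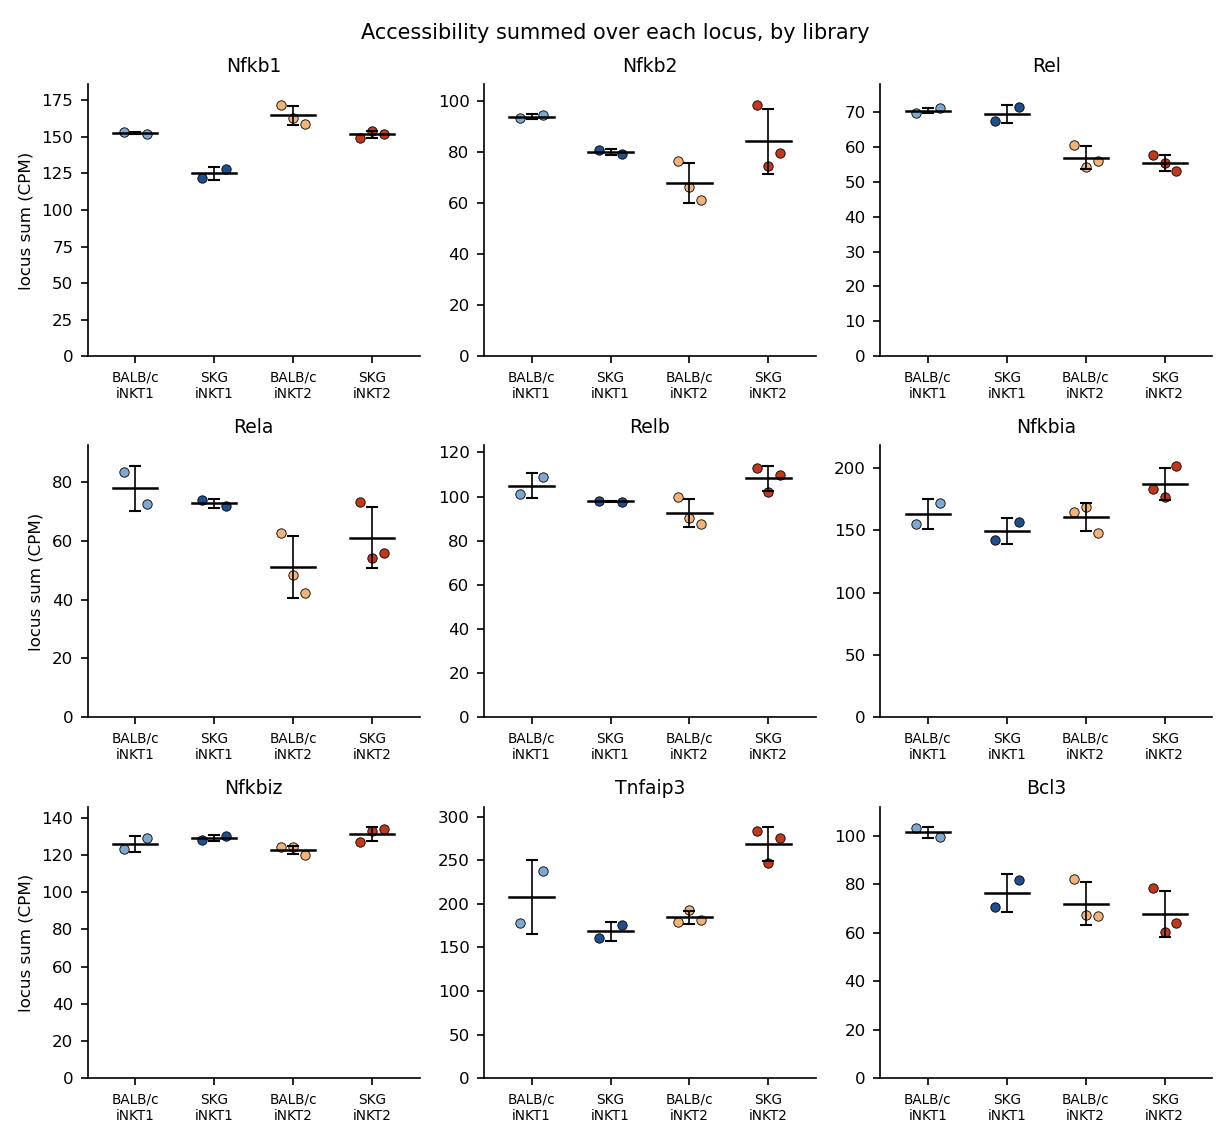
Insertions summed over each of the 9 loci (CPM, vertical axis from 0) in the 4 groups, with points for libraries and bars for the mean and SD. The SKG iNKT2 libraries of Tnfaip3 sit between 247 and 284 CPM, above all 7 other libraries, which reach 238.

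Tnfaip3 was then followed along its 14.7 kb gene body (chr10:19000910-19015657, minus strand), where 18 of its 28 regions lie, 12 of them over exons or untranslated regions. All 18 had a log2 change above 0 between SKG and BALB/c in iNKT2 cells, from 0.52 to 1.90 with a median of 1.59, and 10 passed the test. All 18 had a change below 0 in iNKT1 cells, from -3.81 to -0.22, and 0 passed the test there. The 10 regions outside the gene body held the other 2 gains, Tnfaip3_4 (1169 bp past the gene end) and Tnfaip3_28 (49540 bp upstream of the start).

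Summed over the 17 gene-body regions other than the promoter, the level in CPM was 62.8 and 122 in BALB/c iNKT1, 36.8 and 42.9 in SKG iNKT1, 47.7, 60.9 and 57.2 in BALB/c iNKT2, and 191, 109 and 127 in SKG iNKT2 libraries. The SKG iNKT2 libraries were above the BALB/c iNKT2 libraries without overlap, SKG iNKT2 replicate 1 was the highest of the 10 libraries, and BALB/c iNKT1 replicate 2, at 122, lay within the range of SKG iNKT2. These regions made up 14.0% and 20.2% of the locus in BALB/c iNKT1, 8.82% and 9.50% in SKG iNKT1, 13.8%, 14.8% and 14.0% in BALB/c iNKT2, and 29.7%, 18.4% and 19.1% in SKG iNKT2. The share was thus 18.4% or more in the 3 SKG iNKT2 libraries and in BALB/c iNKT1 replicate 2. Of the 12 gains at Tnfaip3, 5 still passed the test when BALB/c iNKT2 replicate 3 was left out, and 7 when the omitted library was BALB/c iNKT2 replicate 2 or replicate 1 or 3 of SKG iNKT2.

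The 3 regions followed singly were picked for a small adjusted p or a large gain in SKG iNKT2 cells. That SKG iNKT2 was their highest group on average therefore follows in part from the choice, and the order of the others varied. Tnfaip3_17 (chr10:19009134-19009713), in an intron 5944 bp downstream of the start and printed above, had 6.78 and 12.5 CPM in BALB/c iNKT1, 5.72 and 6.03 in SKG iNKT1, 7.18, 7.17 and 6.97 in BALB/c iNKT2, and 27.9, 17.1 and 19.1 in SKG iNKT2. The SKG iNKT2 libraries were above all others, and the genotype change there was 1.59 ± 0.221 SE (adjusted p = 9.7e-05), the smallest adjusted p of the locus. Tnfaip3_10 (chr10:19002866-19004077), over exons, had 4.30 and 14.1, 1.93 and 1.03, 2.51, 7.96 and 6.64, and 23.1, 15.3 and 20.8 CPM in the same order, a change of 1.79 ± 0.393 SE (adjusted p = 3.6e-03) in iNKT2 cells. Tnfaip3_18, 5285 bp downstream of the start, had the largest change of the locus, from 0.627, 0.926 and 0.825 CPM in BALB/c iNKT2 to 4.75, 1.79 and 2.16 in SKG iNKT2 (1.90 ± 0.355 SE, adjusted p = 1.1e-03). In that region SKG iNKT2 replicate 1 was higher than the other libraries of its group together. Tnfaip3_17 and Tnfaip3_18 passed in each of the 19 refits, and Tnfaip3_10 did not without BALB/c iNKT2 replicate 3 (adjusted p = 1.3e-02) or SKG iNKT2 replicate 3 (1.2e-02), in DESeq2 (1.5e-02) or with the floor subtracted (3.7e-02).

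**Figure D3:**
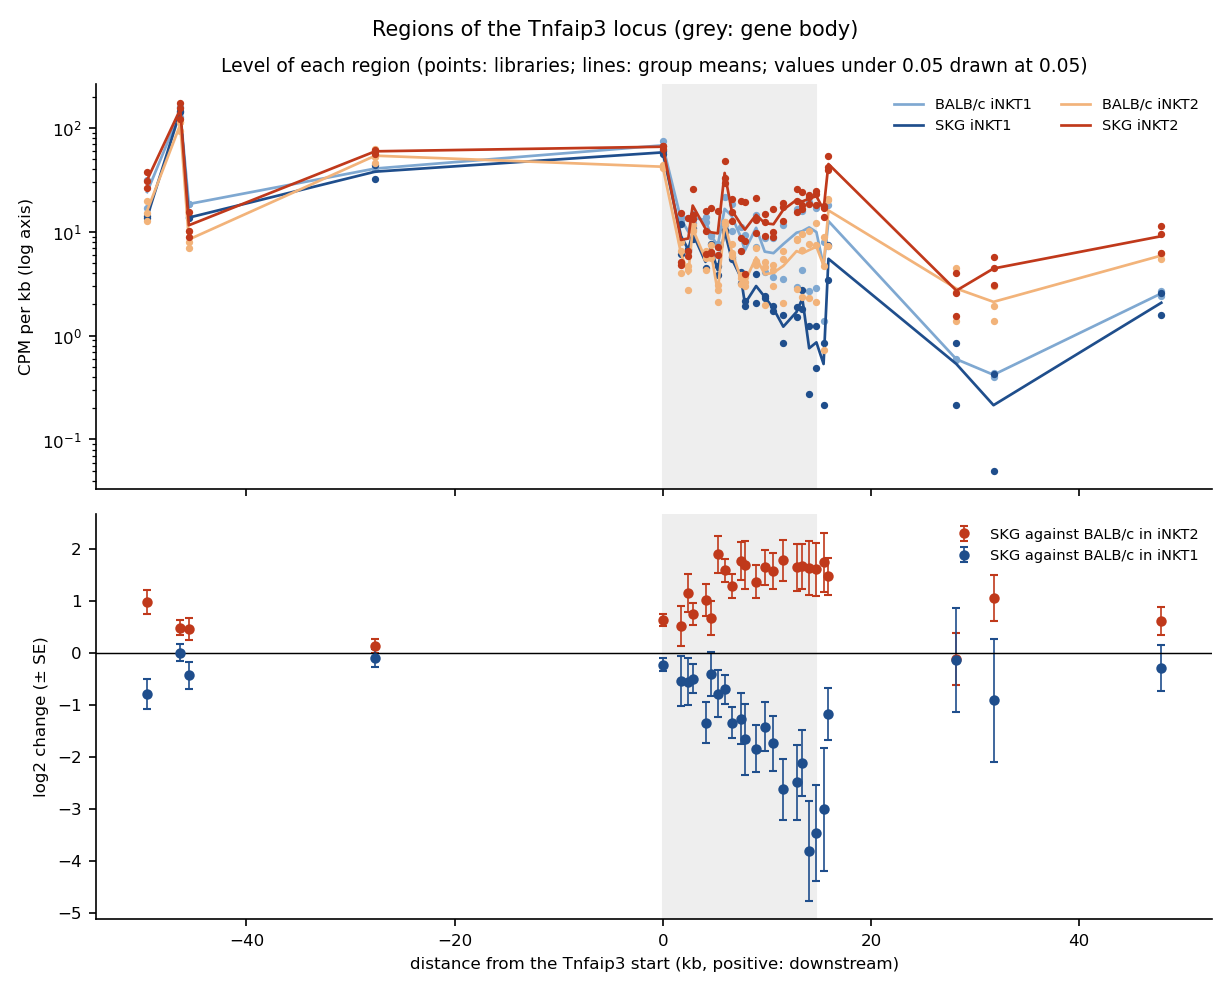
The Tnfaip3 locus by distance from the transcription start in kb (positive is downstream, grey marks the gene body). The upper panel gives CPM per kb on a log axis with points for libraries and lines for group means, and the lower panel gives the log2 genotype change ± SE, above 0 in iNKT2 and below 0 in iNKT1 cells for all 18 regions of the gene body.

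The promoters were the second place of gain. Each gene has 1 region over its start, and all 9 had a log2 change above 0 between SKG and BALB/c iNKT2 cells, from 0.25 (Rel) to 0.71 (Rela), with a median of 0.60. Of these, 7 passed the test, against 8.28% of the 9910 promoter regions of protein-coding genes that were higher and 2.02% that were lower. The median of all promoter regions was itself 0.26, so the median of the 9 lay above that of all promoters and in the same direction. Under quantile normalization the median of all promoters was 0.06 and 1 of the 9 members passed, and with each library's floor subtracted these were 0.12 and 5. With the replicate block, 9 of 9 passed, where 36.9% of all promoter regions were higher and 3.32% lower. All 9 stayed above 0 in each of the 19 refits, and 3 to 7 passed when 1 library was left out, 3 without BALB/c iNKT2 replicate 2.

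By library, the Rela promoter (Rela_4) had 32.6, 29.5 and 28.9 CPM in BALB/c iNKT2 and 57.5, 43.0 and 48.5 in SKG iNKT2 (0.71 ± 0.128 SE, adjusted p = 8.4e-04). The Nfkb2 promoter (Nfkb2_2) had 72.9, 67.1 and 63.8 against 123, 95.9 and 104 CPM (0.66 ± 0.118 SE, adjusted p = 7.5e-04). In iNKT1 cells the same region was highest in BALB/c, with 125 and 133 CPM against 103 and 105 in SKG. The promoters of Tnfaip3 (Tnfaip3_24) and Nfkbia (Nfkbia_14) rose from 83.8, 78.8 and 81.9 to 130, 121 and 130 CPM (0.64 ± 0.109 SE) and from 114, 118 and 119 to 164, 175 and 192 CPM (0.60 ± 0.11 SE). Those of Bcl3 (0.65 ± 0.157 SE), Nfkb1 (0.52 ± 0.104 SE) and Relb (0.50 ± 0.106 SE) passed the test as well, with adjusted p of 6.9e-03, 1.8e-03 and 2.7e-03. Leaving out 1 library ended none of these calls at Nfkb2, Tnfaip3 or Nfkbia. Without BALB/c iNKT2 replicate 2 the calls at Rela (1.1e-02), Nfkb1 (1.5e-02), Relb (2.8e-02) and Bcl3 (5.1e-02) were lost. Relb was also lost without BALB/c iNKT2 replicate 3 or SKG iNKT2 replicate 3, and Bcl3 was lost in 8 of the 10 such fits, passing only without BALB/c iNKT2 replicate 1 or SKG iNKT2 replicate 2. At Rel the libraries read 78.8, 81.0 and 92.5 against 97.6, 104 and 97.7 CPM, and at Nfkbiz 41.4, 49.2 and 51.8 against 56.2, 63.7 and 64.5. Their adjusted p were 1.1e-01 and 3.4e-02, and neither passed.

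**Figure D4:**
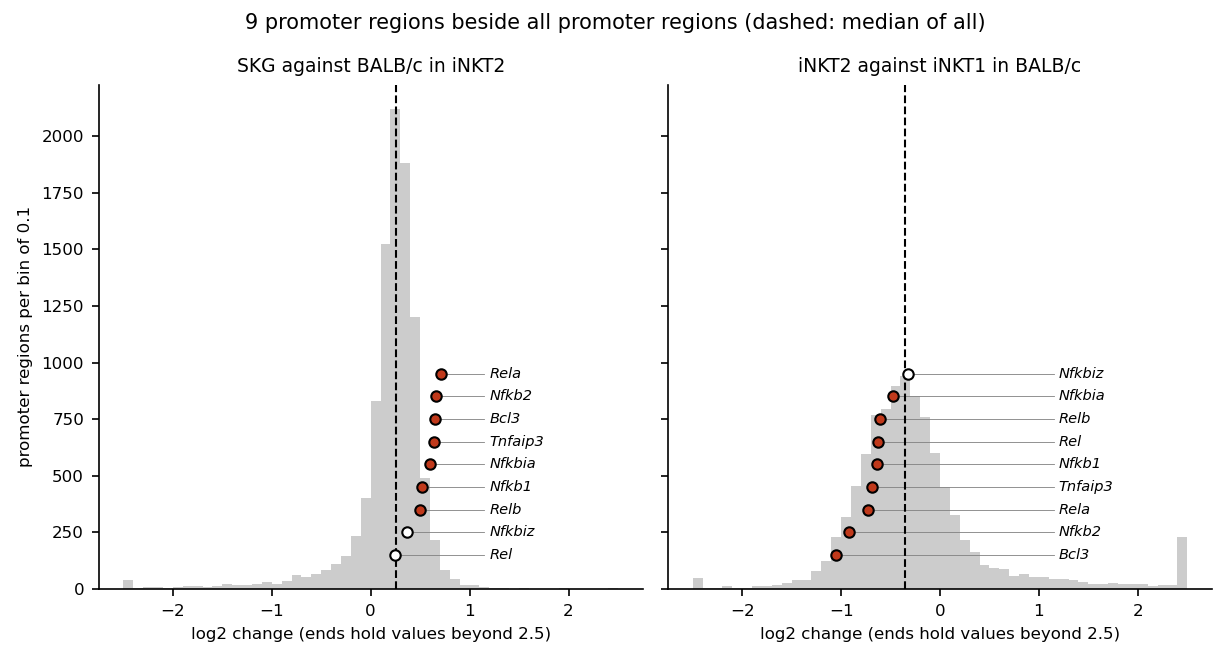
Log2 change of the 9 member promoters (points labelled by gene, stacked only to part the labels, filled where the test was passed) beside the distribution of all 9910 promoter regions (bars, regions per bin of 0.1; dashed line, median), for SKG against BALB/c in iNKT2 and for iNKT2 against iNKT1 in BALB/c. The members lie from 0.25 to 0.71 where the median is 0.26, and from -1.05 to -0.32 where it is -0.35.

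Away from Tnfaip3 and the promoters, 4 regions were higher in SKG iNKT2 cells. Nfkbia_2, 45291 bp downstream of the Nfkbia start and printed above, had 32.7, 38.4 and 34.6 CPM in BALB/c and 46.8, 53.2 and 57.2 in SKG iNKT2 libraries (0.57 ± 0.129 SE, adjusted p = 4.6e-03). In the intron of Bcl3, Bcl3_7 had 33.0, 28.4 and 28.3 against 45.1, 40.6 and 42.8 CPM, and Bcl3_10, 1444 bp upstream of the start, had 18.7, 17.5 and 18.1 against 27.9, 24.2 and 26.8. Nfkbiz_6, 1608 bp past the end of Nfkbiz, was low everywhere but 0.385 and 0.513 CPM in SKG iNKT1 became 4.52, 4.0 and 4.65 in SKG iNKT2, against 1.13, 1.88 and 2.06 in BALB/c iNKT2 (1.38 ± 0.276 SE, adjusted p = 1.9e-03). None of these 4 pairs of groups overlapped, which is likely for regions picked by this same test and adds no support. Nfkbiz_6 passed in each of the 19 refits. The other 3 were lost without BALB/c iNKT2 replicate 2 (adjusted p of 1.3e-02 at Nfkbia_2, 4.8e-02 at Bcl3_7 and 5.6e-02 at Bcl3_10), BALB/c iNKT2 replicate 3 (2.5e-02, 3.9e-02 and 4.1e-02) or SKG iNKT2 replicate 3 (2.5e-02, 1.5e-02 and 2.4e-02). Nfkbia_2 was also lost without BALB/c iNKT2 replicate 1 or SKG iNKT2 replicate 2, Bcl3_7 without BALB/c iNKT1 replicate 1, and Bcl3_10 without either BALB/c iNKT1 library or SKG iNKT2 replicate 1 or 2.

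The losses lay mainly at Nfkb1, whose 106.9 kb body holds 31 of its 37 regions. Nfkb1_37 (chr3:135733100-135733448), 41553 bp upstream of the start, had 4.52, 5.66 and 5.36 CPM in BALB/c iNKT2 and 0.713, 0.873 and 1.28 in SKG iNKT2 (-2.49 ± 0.294 SE, adjusted p = 2.3e-05). The 2 BALB/c iNKT1 libraries had 0.866 and 1.10 and the SKG iNKT1 libraries 0.0642 and 0.321, so BALB/c iNKT2 stood above the rest. Nfkb1_32, 6838 bp upstream, fell from 3.98, 2.43 and 3.22 to 0.891, 0.459 and 0.539 CPM (-2.27 ± 0.358 SE, adjusted p = 2.9e-04). Both passed the adjusted p in each of the 19 refits, with changes of -3.01 to -2.23 and of -3.00 to -1.88. Per kb, the SKG iNKT2 libraries held 2.04 to 3.67 CPM at Nfkb1_37 and 1.27 to 2.47 at Nfkb1_32, above their floors of 0.603 to 1.09 (scaled without TMM). With each library's floor subtracted, the changes were -3.01 and -3.00. In iNKT1 cells the genotype change was -2.31 ± 0.569 SE at Nfkb1_37 (adjusted p = 2.7e-02) and -1.52 ± 0.462 SE at Nfkb1_32 (7.5e-02). These had the same direction as in iNKT2 cells but did not pass. The difference between subsets was -0.19 ± 0.822 SE and -0.75 ± 0.6 SE (adjusted p of 9.3e-01 and 5.3e-01 in the interaction test). The other 6 losses at Nfkb1 in SKG iNKT2 cells were smaller, from -1.65 to -0.89.

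The third called loss was Relb_6, in an intron of the neighbouring gene Clptm1, 21961 bp upstream of the Relb start. It had 2.29, 1.59 and 0.866 CPM in BALB/c iNKT2 and 0.565, 0.138 and 0.202 in SKG iNKT2 (-2.25 ± 0.562 SE, adjusted p = 9.0e-03), and at most 0.0597 in any iNKT1 library. Of the SKG iNKT2 libraries, replicates 2 and 3 were below their floor per kb (scaled without TMM). The call was lost in 8 of the 10 fits that left out 1 library, that is without any iNKT1 library (adjusted p of 1.0e-02 to 1.3e-02), BALB/c iNKT2 replicate 1 or 2 (3.0e-02 and 2.8e-02) or SKG iNKT2 replicate 2 or 3 (3.7e-02 and 3.4e-02). Bcl3_18 lies nearer to Gm19345 than to Bcl3 and fell below the fold threshold, from 14.1, 7.88 and 8.66 to 3.98, 1.65 and 2.09 CPM (-1.93 ± 0.281 SE, adjusted p = 1.5e-04). Nfkbiz_3, 46216 bp downstream of the start, fell from 7.97, 9.28 and 8.66 to 4.31, 3.67 and 3.51 CPM (-1.16 ± 0.184 SE, adjusted p = 3.0e-04).

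**Figure D5:**
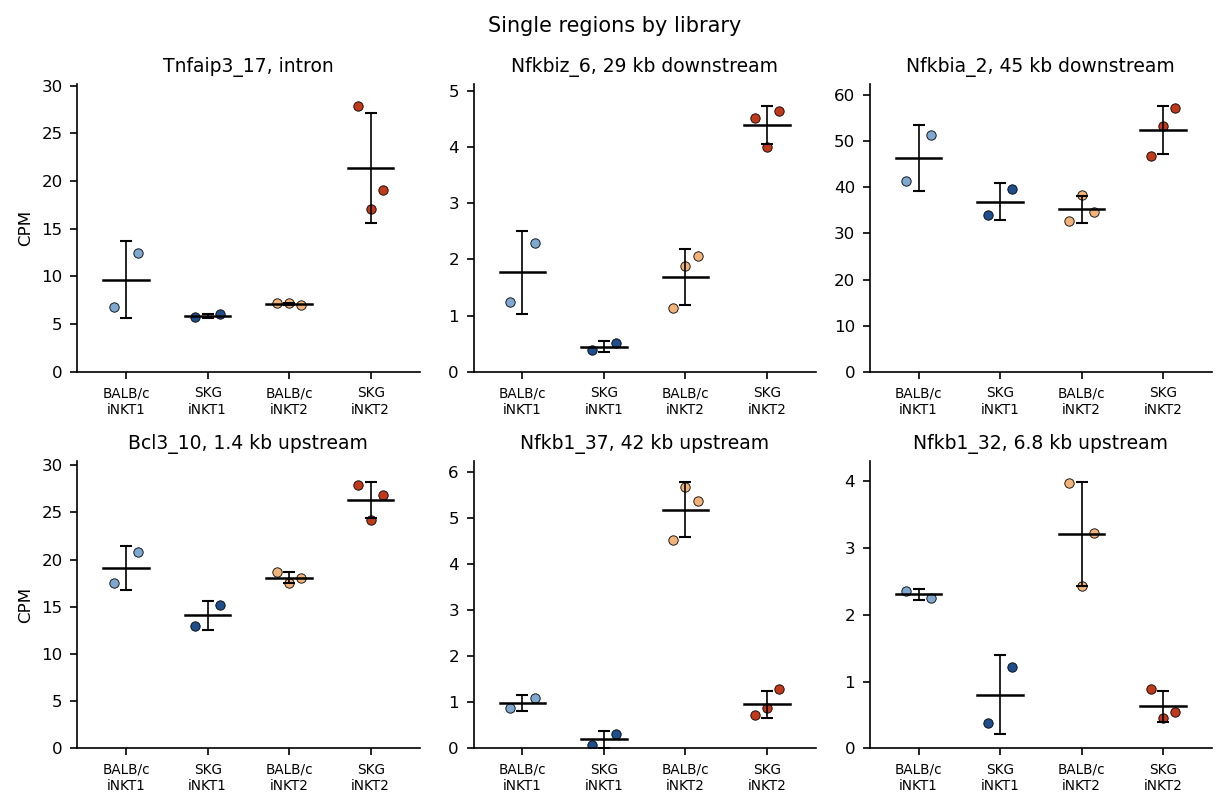
CPM of single regions named in the text in each library (points) of the 4 groups, with bars for the mean and SD and axes from 0. SKG iNKT2 is highest at Tnfaip3_17 (17.1 to 27.9) and Nfkbiz_6 (4.0 to 4.65), and BALB/c iNKT2 is highest at Nfkb1_37 (4.52 to 5.66).

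In iNKT1 cells the same comparison of genotypes pointed down. The Cd8a promoter was higher in both SKG iNKT1 libraries than in the BALB/c ones, and its part here was not tested. None of the 164 regions was called, against 0.281% of all regions called higher and 0.732% called lower in SKG. Without the fold threshold 0 were higher (0.662% of all regions) and 3 lower (1.42% of all regions), while 48 (29.3%) had an unadjusted p under 0.05, against 17.1% of all regions. The median change was -0.28 against -0.03 for all regions, and 125 of 164 lay below 0 (76.2%, against 52.7% of all regions). The 3 losses, named after their values were seen, were Nfkb1_10 (10.2 and 10.1 CPM in BALB/c, 4.11 and 3.46 in SKG iNKT1), Nfkb1_19 (3.26 and 2.60, 1.22 and 0.770) and Nfkbia_9 (4.66 and 6.92, 1.80 and 1.86). In none of them did the groups overlap, which is likely for regions picked by this same test and adds no support. With 2 libraries a group this count rests on single libraries, being 0 without BALB/c iNKT1 replicate 2 or either SKG iNKT1 replicate. It was 4 without BALB/c iNKT1 replicate 1, 8 with SKG iNKT2 replicate 1 left out and 7 with BALB/c iNKT2 replicate 1 left out. DESeq2 called 1 region and passed 6 without the fold threshold.

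Of the locus sums, 0 of 9 passed the test in iNKT1 cells, where 0.232% of all genes were higher and 0.491% lower. With the replicate block, although the numbers did not pair the iNKT1 libraries, Nfkb1 (-0.29, adjusted p = 5.8e-03) and Bcl3 (-0.41, adjusted p = 7.4e-04) passed, where 2.1% of all genes were higher and 3.62% lower. Bcl3 had 103 and 99.6 CPM in BALB/c and 70.7 and 81.8 in SKG iNKT1 (-0.41 ± 0.143 SE, adjusted p = 2.6e-01). Nfkb1 had 153 and 152 against 122 and 128 (-0.28 ± 0.069 SE, adjusted p = 7.8e-02), and it passed in DESeq2 (adjusted p = 2.2e-04). At Tnfaip3 the values were 178 and 238 against 161 and 176 CPM (-0.31 ± 0.126 SE, adjusted p = 3.7e-01), and replicate 2 of BALB/c made most of that gap. All 9 promoters lay below 0, from -0.51 to -0.06, where the median of all promoters was 0.05. One of the 9 turned to 0.03 when the GC trend was removed, and 3 turned above 0, up to 0.05, without BALB/c iNKT1 replicate 2.

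Whether the genotype change differed between the 2 subsets was tested as an interaction, the change in iNKT2 minus the change in iNKT1. Of the 164 regions, 7 were called higher, against 0.189% of all regions, and 0 lower, against 0.341%. Without the fold threshold these were 8 (0.446% of all regions) and 0 (0.479%). The 7 were Tnfaip3_10, Tnfaip3_11, Tnfaip3_12, Tnfaip3_13, Tnfaip3_16, Tnfaip3_17 and Nfkbiz_6, and the 8th was the Nfkb2 promoter. The interaction was 4.41 ± 0.707 SE at Tnfaip3_10 (adjusted p = 3.7e-03), 2.30 ± 0.361 SE at Tnfaip3_17 (adjusted p = 3.3e-03), 3.32 ± 0.537 SE at Nfkbiz_6 (adjusted p = 3.9e-03) and 0.97 ± 0.186 SE at the Nfkb2 promoter (adjusted p = 9.7e-03). With 6 of the 179 regions called higher across the table, Tnfaip3 held more than any other of the 18111 genes, of which 239 held at least 1 and the next 5. Genes with more regions have more chances to hold one.

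These calls rested on single iNKT1 libraries. With BALB/c iNKT1 replicate 2 left out, which was high across the Tnfaip3 gene body, or either SKG iNKT1 library left out, none of the 8 passed the test, while omission of BALB/c iNKT2 replicate 3 left 1 past it, that of BALB/c iNKT2 replicate 2 or SKG iNKT2 replicate 3 left 3, and that of BALB/c iNKT1 replicate 1 left 4. With each floor subtracted, 1 of the 8 passed. All 8 kept their direction in each of the 18 refits, and in DESeq2 all 8 passed. Among the locus sums, 0 of 9 passed, where 0.0276% of all genes were higher and 0.668% lower, with the largest value at Tnfaip3 (0.85 ± 0.163 SE, adjusted p = 2.6e-02, and 1.0e-04 in DESeq2).

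The subsets themselves were compared within each genotype. In BALB/c, iNKT2 cells had 18 of the 164 regions called higher than iNKT1 cells (15.5% of all regions were) and 4 called lower (6.36%). Without the fold threshold 29 were higher (25.7% of all regions) and 46 lower (23.4%), a balance that turned to 40 higher and 25 lower with library totals without TMM and was 20 and 68 with the GC trend removed. In SKG, 32 were called higher (10.2% of all regions) and 9 lower (6.96%), and without the fold threshold 54 (18.4%) and 19 (17.6%). The median change was -0.25 in BALB/c and 0.43 in SKG, where all regions had 0.06 and 0.14. Scaled to library totals without TMM, the BALB/c median turned to 0.03 as that of all regions moved to 0.34. Regions of the Tnfaip3 locus made up 2 of the 18 and 13 of the 32. The iNKT17 marker promoters also stood higher in all iNKT2 than in all iNKT1 libraries, and their part in these counts was not tested.

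By region, the largest BALB/c subset change named was at Nfkbiz_3, with 0.179 and 0.220 CPM in BALB/c iNKT1 and 7.97, 9.28 and 8.66 in BALB/c iNKT2 (5.42 ± 0.312 SE, adjusted p = 6.8e-09), and it stood at 4.54 ± 0.38 SE in SKG. Nfkbia_6, 25808 bp downstream of the start, had 3.52 and 3.31 CPM in BALB/c iNKT1 against 13.9, 18.9 and 19.2 in BALB/c iNKT2 (2.34 ± 0.21 SE, adjusted p = 2.6e-07), and 1.99 and 1.80 against 14.2, 12.7 and 16.7 in SKG (2.93 ± 0.239 SE). Both are distal regions that were open mainly in iNKT2 cells. In the other direction, Rel_6, 11109 bp upstream of Rel, fell from 8.99 and 9.61 to 2.85, 1.69 and 1.61 CPM (-2.17 ± 0.267 SE, adjusted p = 5.3e-06), and Nfkb1_11, in an intron, from 9.50 and 8.11 to 2.23, 1.85 and 1.98 (-2.13 ± 0.208 SE, adjusted p = 5.8e-07). Rela_7, which lies nearer to Sipa1, fell from 30.6 and 24.1 to 9.91, 6.0 and 4.66 CPM (-1.99 ± 0.258 SE, adjusted p = 9.1e-06). None of these 5 regions lost its test in any refit.

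Within BALB/c, the promoters of the 9 genes were lower in iNKT2 than in iNKT1 cells, from -1.05 (Bcl3) to -0.32 (Nfkbiz), and 8 passed the test. Of all promoter regions 38.2% were lower and 7.08% higher, with a median of -0.35. Under quantile normalization that median was -0.01, 3 of the 9 passed, and Nfkbiz turned to 0.11. In SKG none of the 9 promoters passed the test between subsets, with changes from -0.29 (Rel) to 0.22 (Nfkbia). Levels of the Tnfaip3 promoter were 119 and 143 CPM in BALB/c iNKT1, 109 and 115 in SKG iNKT1, 83.8, 78.8 and 81.9 in BALB/c iNKT2, and 130, 121 and 130 in SKG iNKT2, so that BALB/c iNKT2 was the lowest group without overlap.

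Few locus sums passed the test between subsets. In BALB/c 0 of the 9 were higher (19.6% of all genes) and 1 lower (12.5%), which was Rel with 69.8 and 71.0 CPM in iNKT1 against 60.6, 54.2 and 55.9 in iNKT2 (-0.31 ± 0.0747 SE, adjusted p = 7.3e-03). In SKG 2 were higher (11.9% of all genes) and 1 lower (9.13%). Tnfaip3 rose from 161 and 176 to 284, 247 and 276 CPM (0.68 ± 0.117 SE, adjusted p = 1.7e-03) and Nfkb1 from 122 and 128 to 149, 154 and 152 (0.28 ± 0.0635 SE, adjusted p = 7.7e-03), while Rel was again lower, with 67.5 and 71.3 against 57.7, 55.3 and 53.0 (-0.33 ± 0.0751 SE, adjusted p = 7.8e-03). Without SKG iNKT1 replicate 1 or replicate 2 none of the 3 passed, and with any of BALB/c iNKT1 replicate 1 or 2, BALB/c iNKT2 replicate 2 or 3 or SKG iNKT2 replicate 2 or 3 left out only Tnfaip3 passed. The sums of Rela (-0.61 ± 0.17 SE), Bcl3 (-0.49 ± 0.129 SE) and Nfkb2 (-0.46 ± 0.124 SE) had larger BALB/c changes that did not pass. Their adjusted p were 1.4e-02, 1.1e-02 and 1.2e-02. Under quantile normalization the call at Rel was lost and Nfkb1 was higher instead (0.27 ± 0.0564 SE, adjusted p = 3.9e-03). With 1 library left out, the lower BALB/c sum of Rel still passed only when that library was replicate 1 of BALB/c iNKT2 or of SKG iNKT2.

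Matches to kappa B strings were counted as a description. The 10-base consensus was found in the central 300 bases of 45 of the 164 regions (27.4%), against 21.7% of all regions, and GGANNTTCC in 10 (6.1%), against 3.62%. Of the 22 regions higher in SKG iNKT2 cells, 7 (31.8%) held the consensus and 4 (18.2%) the 9-letter string, and of the 12 lower regions 1 (8.33%) and 0 did. Several of these regions are neighbours in 1 gene, so they are not independent. RefSeq lists 9 promoters for 6 of the genes (none was listed for Nfkb1, Relb or Nfkbiz). The consensus lay in the 250 bases before the start of 9 of these 9, and of 23.2% of all 32851 promoters, and the 9-letter string in 4 of 9, and 3.59% of all. Self-regulation of Nfkbia and Nfkb2 through kappa B sites is textbook knowledge, and a match here is a letter match only.

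Other genes of the pathway were read from lists. Of 13 genes upstream of NF-kB (237 regions, kinases and adaptors such as Malt1 and Chuk), the SKG iNKT2 cells had 0 regions called higher and 9 lower, and 10 and 17 passed without the fold threshold. Of 10 other inhibitors (224 regions), 1 was called higher and 5 lower, with 20 and 13 past the test. Of 14 targets of NF-kB in lymphocytes (262 regions, of which Tnf, Lta and Ltb share most of theirs), 4 were called higher and 1 lower, with 38 and 6 past the test. The median changes were 0.05, 0.17 and 0.33. Over all regions 0.252% were called higher and 4.73% lower, 4.02% and 10.1% passed without the fold threshold, and the median was 0.01. The share called lower was 3.8% upstream, 2.23% for the inhibitors and 0.382% for the targets.

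Genes of these lists with more than 1 region called were Traf6, an adaptor of interleukin and Toll-like receptors, with 3 lower, Tnip3, a partner of the Tnfaip3 protein, with 3 lower, Ikbkb, the IKK beta kinase, with 2 lower, and Il2ra, the alpha chain of the interleukin-2 receptor, with 2 higher. As locus sums, Traf6 was lower (-0.44 ± 0.087 SE, adjusted p = 6.6e-03), Tnip3 lower (-0.49 ± 0.0931 SE, adjusted p = 5.9e-03) and Il2ra higher (0.41 ± 0.0755 SE, adjusted p = 4.5e-03) in SKG iNKT2 cells. The only other list member past the test there was Tnip1, named after its values were seen, which encodes another partner of the Tnfaip3 protein and was higher (0.55 ± 0.101 SE, adjusted p = 4.5e-03). The sum of Ikbkb changed by -0.11 ± 0.0693 SE and did not pass. By list, 0 sums were higher and 1 lower of the 13 upstream genes. These were 1 and 1 of the 10 other inhibitors, and 1 and 0 of the 14 targets. Of all genes, 0.618% had a higher sum and 7.75% a lower sum. Whether these calls hold with 1 library left out is not given here.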

How the data were processed

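By the study's methods and the submitters' processing notes (bcl2fastq, Trim Galore, Bowtie 1.0, Picard, MACS2 and limma), the authors aligned reads to mm10, trimmed those that failed and aligned them again, removed duplicates, called summits, merged them into 1 set of regions and counted transposase insertions. The deposited table is named as normalized, but it holds whole-number counts with differing column totals, so it was used as raw counts of insertions per region. Depth is insertions inside regions only, and these limit the precision of low regions. All columns belonged to a sample of the series (0 did not).

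Genes were those of GENCODE M21 (GRCm38), with 1-based coordinates throughout. Counts of all 94823 regions in the 10 libraries were fitted with edgeR 4.0.16 in R 4.3.3 (TMM over all regions, 1 mean per group, quasi-likelihood F tests, Benjamini-Hochberg over all regions). Insertions summed per gene were fitted the same way. Standard errors come from the F statistic, and no filter was set on low counts. Alternatives were DESeq2 1.42.0, library totals without TMM, voom with limma 3.58.1 (the authors' test), quantile normalization with voom, a filter at a mean of 36.2 insertions, only the groups compared, looser thresholds (adjusted p under 0.05 and 2-fold), subtraction of each library's floor, removal of its GC trend, a replicate block, omission of each library, a 10 kb window and the nearest start only. The scripts were tested on simulated data.

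Replicate numbers are in the sample titles. Deviations of same-numbered libraries from their group means correlated at 0.446, 0.136 and 0.156 between BALB/c and SKG iNKT2, so the numbers were treated as pairs there. Different-numbered libraries correlated at -0.329 to 0.207, and only the replicate 1 libraries each correlated best with their own number, so this is a hint from the data, not the design. They did not pair the iNKT1 libraries (-0.00207).

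Named regions were, for each gene, the promoter region, the regions of smallest adjusted p for genotype in iNKT2 and for subset in BALB/c, any region called between genotypes or in the interaction, and up to 3 of the regions higher in SKG iNKT2 with the largest change. The 9 genes, the gene lists and the tests were chosen with earlier results of these data known. A gene of the iNKT17 marker list is not reported here.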

Additional observations from a re-analysis of the deposited data

Results flagged for a closer look

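In 8 regions the genotype change in iNKT2 cells differed from that in iNKT1 cells by edgeR's interaction test, always with a gain in SKG iNKT2 and a lower value in SKG iNKT1. At the exons of Tnfaip3 the difference of the log2 changes was 4.41 (Tnfaip3_10), 3.31 (Tnfaip3_11), 3.07 (Tnfaip3_12), 3.21 (Tnfaip3_13) and 2.64 (Tnfaip3_16), and at its intron 2.30 (Tnfaip3_17). It was 3.32 past the end of Nfkbiz (Nfkbiz_6) and 0.97 at the Nfkb2 promoter (Nfkb2_2). None of the 8 passed the test without BALB/c iNKT1 replicate 2 (adjusted p of 2.1e-02 to 7.5e-02) or without SKG iNKT1 replicate 1 (2.4e-02 to 7.1e-02) or replicate 2 (2.2e-02 to 5.8e-02), although no direction changed. BALB/c iNKT1 replicate 2 had 14.1 CPM at Tnfaip3_10 where replicate 1 had 4.30, and 2.29 at Nfkbiz_6 where replicate 1 had 1.25. Over groups of 4 or more samples nothing could be tested for outlying libraries, since the groups hold 2 or 3.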

How the results depend on the processing

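Of 3629 single values recomputed for the named regions and the 9 sums, 3257 kept their side of the threshold, 252 lost the test and 120 gained it. The sign turned in 75, and 0 of these passed the test in either fit. The depth limits the regions of low level most, and 9 of the 12 losses in SKG iNKT2 passed the filter on low counts. Removing the GC trend moved the median of all regions by 0.18 for genotype in iNKT2, -0.25 for subset in BALB/c and -0.17 in SKG. Library totals without TMM moved it by -0.13, 0.28 and 0.18 in the same order. Where a count moved, the cause was not tested, except that thresholds and windows change what is counted.

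For genotype in iNKT2, the 3 called regions became 12 (10 higher, 2 lower) under quantile normalization, 8 (4 higher, 4 lower) with the floor subtracted, 6 (5 higher, 1 lower) with the GC trend removed, 36 at the looser thresholds, 1 within 10 kb, and 2 to 6 without 1 library. With voom the count stayed at 3, as 1 higher and 2 lower. The 34 past the adjusted p alone (22 higher, 12 lower) became 22 with the floor subtracted (13 higher, 9 lower) and 20 to 34 without 1 library. They were 10 higher and 10 lower without BALB/c iNKT2 replicate 2 or replicate 3. The 1 locus sum became 2 in DESeq2, 0 under quantile normalization and 0 to 1 without 1 library. For genotype in iNKT1, the 0 called regions became 1 in DESeq2, 6 in a fit of the groups compared, 13 at the looser thresholds and 0 to 3 without 1 library. The 3 past the adjusted p alone became 6 in DESeq2, 1 with voom, 0 under quantile normalization, 19 in a fit of the groups compared, 1 with the floor subtracted, 13 at the looser thresholds and 0 to 8 without 1 library, and the 0 locus sums became 1 in DESeq2 and stayed at 0 without any 1 library.

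For subset in BALB/c, the 22 called regions became 9 with the filter, 59 at the looser thresholds, 9 within 10 kb and 17 to 24 without 1 library, the 75 past the adjusted p alone 49 to 87 without 1 library, and the 1 locus sum 4 in DESeq2, 0 with library totals, 2 with voom, 2 within 10 kb and 0 to 4 without 1 library. For subset in SKG, the 41 called became 24 under quantile normalization, 72 at the looser thresholds, 19 within 10 kb and 29 to 42 without 1 library, the 73 past the adjusted p alone 43 to 81 without 1 library, and the 3 locus sums 1 with voom, 1 within 10 kb and 0 to 3 without 1 library. For the interaction, the 7 called became 17 in DESeq2, 3 with library totals, 2 with voom, 1 under quantile normalization, 1 with the floor subtracted, 15 with the GC trend removed, 24 at the looser thresholds and 0 to 14 without 1 library. The 8 past the adjusted p alone became 24, 3, 3, 1, 1, 16 and 24 in the same order, 5 with the filter and 0 to 16 without 1 library, and the 0 locus sums became 1 in DESeq2.

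With the replicate block, the regions past the adjusted p alone for genotype in iNKT2 rose from 34 to 66 and the locus sums from 1 to 5. In iNKT1, where the numbers did not pair the libraries, the block gave 7 called, 18 past the adjusted p alone and 2 locus sums, and in BALB/c 3 locus sums for subset. The interaction, which takes in those libraries, had 20 called, 39 past the adjusted p alone and 3 locus sums. The block moved no other of these counts by more than 1.5 times.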
